A study of Mus musculus with 3 samples.

Results

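Activins, myostatin and the growth and differentiation factors (GDFs) were followed across the cells of injured mouse muscle through 10 genes: the ligand genes Inhba, Inhbb, Mstn, Gdf3 and Gdf15, the type II receptor genes Acvr2a and Acvr2b, the inhibitor genes Fst and Fstl3, and the follistatin-like gene Fstl1. They were picked by symbol from the 32285 genes of the count tables, and each symbol matched 1 gene. Single-cell suspensions came from tibialis anterior muscles of C57/BL6J mice 4 days after injury by an injection of barium chloride (BaCl2), a salt that destroys fibres and leaves the muscle to regenerate. There were 3 groups: young mice given PBS, old mice given PBS, and old mice given recombinant meteorin-like protein (rMETRNL), a secreted protein, by injection into the muscle. All 3 groups carried the injury, and no uninjured muscle was measured here. Triplicate muscles of a group were pooled before capture into 1 droplet library. With 1 library per group there was no replicate and no test between groups: the intervals below are exact 95% intervals for counting error alone, they do not include the spread between animals, and the molecules of 1 cell are not independent of each other.

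Activins are dimers of the inhibin beta chains, which Inhba and Inhbb encode. Activins and myostatin bind the type II receptors Acvr2a and Acvr2b, which recruit type I receptors such as Acvr1b and Tgfbr1, and the complex phosphorylates Smad2 and Smad3. Follistatin (Fst) and follistatin-like 3 (Fstl3) bind activins and myostatin outside the cell and block them, while Smad7 is an inhibitor inside the cell. Myostatin restrains muscle growth and is made by muscle fibres; Gdf15 is a stress-induced factor whose receptor, Gfral, sits in the hindbrain; and Fstl1 is a secreted glycoprotein that shares a follistatin domain. Fibro-adipogenic progenitors (FAPs) are the connective tissue progenitors of muscle.

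The libraries held 12168 (young PBS), 12568 (old PBS) and 14012 (old rMETRNL) barcodes with 218059089, 179295668 and 228966697 unique molecules (UMIs). After filtering, 10323, 10021 and 11479 cells remained, with a median of 15100, 13698 and 14507 UMIs. Between 58 and 80 barcodes were shared by each pair of libraries, and 188 by any. Clustering without the 10 genes gave 26 clusters, named "-like" from marker genes. In each of the 11 named classes every marker on its list was higher than in the remaining cells. In the FAP-like class the 11 markers were a median of 23.3-fold higher. The names were given from these same lists, so this describes the naming and is no separate check of it. Expression is given as CPM, the UMIs of a gene scaled so that all UMIs of that class in that library sum to 1000000. Macrophage/monocyte-like cells were 55.3%, 52.0% and 53.4% of the kept cells of these suspensions, with 5704, 5207 and 6134 cells, and FAP-like cells numbered 1626, 1333 and 1676. Comparisons used the 8 classes with at least 100 cells in each library; mature fibre-like and Schwann/glial-like cells were too few, and 676, 1041 and 972 cells stayed unnamed.

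Expression was divided among a few classes. Of the 8 classes compared, Inhba, Fst, Fstl1 and Acvr2a were highest in FAP-like cells, Inhbb in endothelial-like cells, and Gdf3 and Gdf15 in macrophage/monocyte-like cells. Of the Fst UMIs in kept cells, FAP-like cells held 89.7% in young PBS, against 93.4% in old PBS with 91.0% in old rMETRNL, although they were only 15.8% of the kept cells in young PBS. Macrophage/monocyte-like cells held 92.0%, 90.1% and 90.7% of the Gdf15 UMIs. The ligand gene Inhba and the inhibitor gene Fst had their highest levels in the same class, and Gdf3 and Gdf15 in another.

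**Figure D1:**
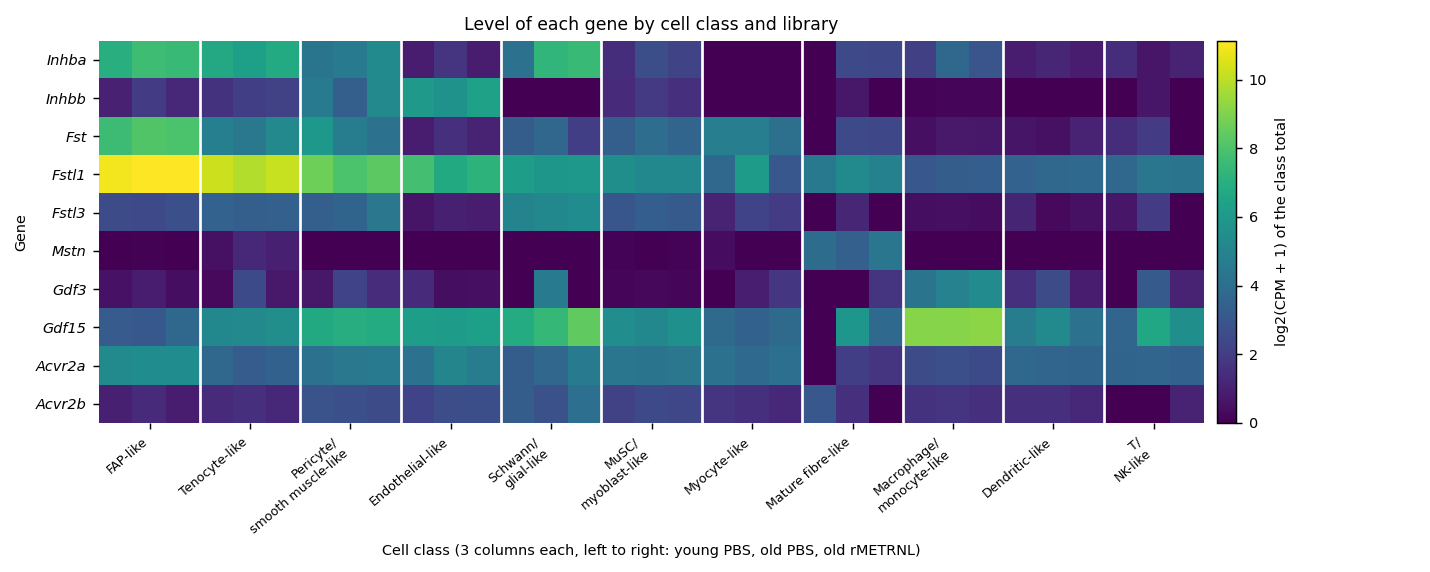
Colour gives the level of each of the 10 genes, as log2(CPM + 1) of the class total, in the 11 named classes (columns in threes: young PBS, old PBS, old rMETRNL). Of the 8 classes with at least 100 cells in each library, FAP-like cells hold the highest levels of Inhba, Fst, Fstl1 and Acvr2a, macrophage/monocyte-like cells those of Gdf3 and Gdf15, and endothelial-like cells that of Inhbb.

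**Figure D2:**
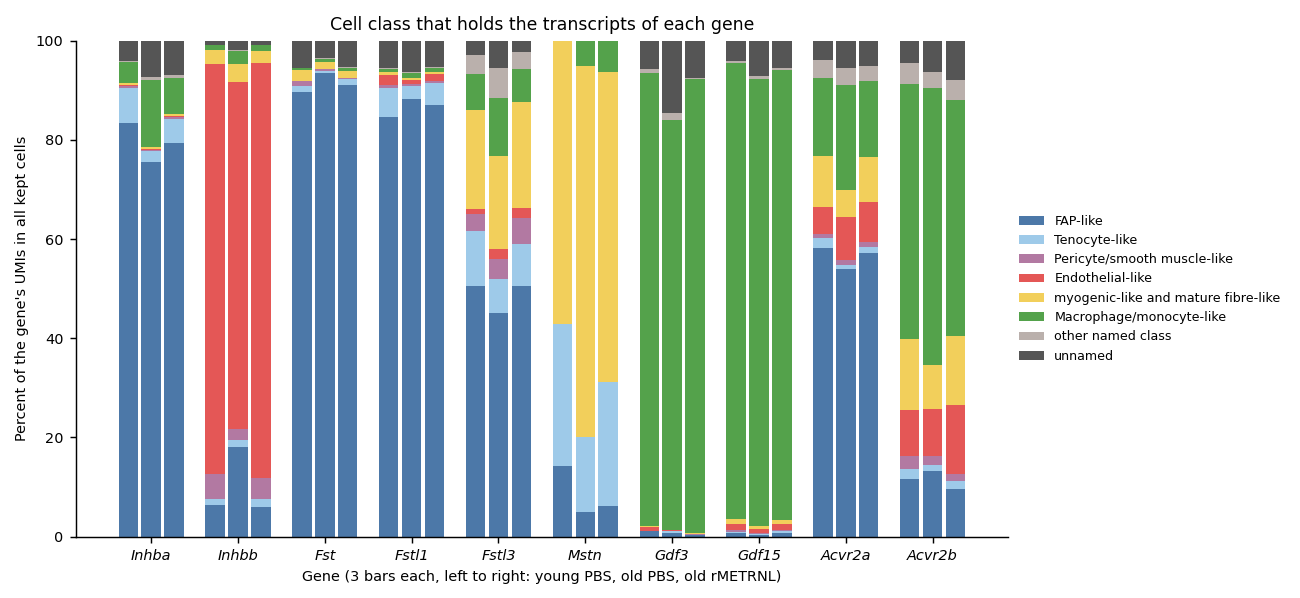
Stacked bars give the percent of each gene's UMIs in kept cells that came from each class, with 3 bars per gene (from left, young PBS, then old PBS, then old rMETRNL); the Mstn bars rest on 7, 20 and 16 UMIs. FAP-like cells held between 75.6% and 83.4% of the Inhba UMIs, and macrophage/monocyte-like cells between 90.1% and 92.0% of the Gdf15 UMIs.

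Across the 8 classes, 40 pairs of a gene and a class held at least 100 UMIs over the 3 libraries, the minimum for a ratio to be read, and a ratio of at least 1.5 in either direction was counted. In old PBS against young PBS, 8 were at least 1.5-fold higher and 3 at least 1.5-fold lower, where 6.23% and 6.29% of 73861 pairs over all genes were. In old rMETRNL against old PBS, which share the old PBS library, 4 were higher and 5 lower, where 4.36% and 4.3% were. In FAP-like cells, 3 of the 8 members read were higher and 0 lower in old PBS (all genes of the class, 6.21% and 5.81%), and 1 was higher and 2 lower in old rMETRNL (4.13% and 4%). Macrophage/monocyte-like cells had 3 of 7 higher and 0 lower in old PBS (5.18% and 6.25%), and 0 higher and 1 lower in old rMETRNL (4.91% and 2.89%). The 3 were Inhba, Gdf3 and Fst, and the Fst counts there were 0.546 and 0.747 times what RNA carried over from FAP-like cells would give (young PBS, old PBS), with Fstl1, also among the 7, at 1.03 and 1.11 times. The FAP marker Dcn stood at 13.7 and 24.5 CPM in the same cells. The median log2 ratio of old PBS to young PBS was 0.35 over the 8 members read in FAP-like cells and 0.27 over the 7 read in macrophage/monocyte-like cells, against -0.04 and 0.00 over all genes. The middle value of those 7 was that of Fstl1, which stood near what carry-over would give. The median lay below 0 in tenocyte-like (-0.38, 6 read), pericyte/smooth muscle-like (-0.27, 4 read) and endothelial-like cells (-0.14, 5 read), where all genes stood at -0.01, -0.05 and -0.05. For old rMETRNL to old PBS the median was -0.09 in FAP-like and -0.11 in macrophage/monocyte-like cells, against 0.02 and 0.05 over all genes. The middle value in macrophage/monocyte-like cells was that of Fst, whose counts lay below what carry-over would give.

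Inhba encodes the beta A chain of activin A (chromosome 13, 16011851 to 16031621, plus strand, mm10). In FAP-like cells it stood at 127.5 CPM in young PBS (5691 UMIs), 201.5 in old PBS (5972 UMIs) and 177.9 in old rMETRNL (7758 UMIs). Old PBS was the highest of the 3 and young PBS the lowest, and the intervals of the 3 levels did not overlap. In the 105, 125 and 78 FAP-like cells without a UMI of the macrophage markers Lyz2, C1qa and Csf1r, Inhba stood at 50.6, 110 and 130 CPM, so that young PBS was again the lowest but old rMETRNL was the highest, at a ratio to old PBS of 1.18. The ratio of old PBS to young PBS was 1.58 (1.52 to 1.64), and that of old rMETRNL to old PBS was 0.883 (0.854 to 0.913). Inhba was not evenly spread: a UMI was found in 32.8%, 37.7% and 36.6% of FAP-like cells. In T/NK-like cells, which held 3, 1 and 1 Inhba UMIs, the shares were 1.42%, 0.498% and 0.719%. Median depths were 26006, 21754 and 24645 UMIs in FAP-like cells against 5820, 5663 and 4679 in T/NK-like cells. After thinning each cell to 2000 UMIs the FAP-like shares were 8.37%, 15.0% and 12.1%.

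In macrophage/monocyte-like cells the level was lower and the ratio to young PBS larger. Inhba stood at 3.27 CPM in young PBS (301 UMIs in 164 cells), 12.0 in old PBS (1057 UMIs in 341 cells) and 6.75 in old rMETRNL (699 UMIs in 277 cells). The 10 cells with the most Inhba held 79, 306 and 263 of these UMIs, and the highest cell 19, 73 and 58. Old PBS was again the highest, and the treated library lay between the PBS libraries. The ratio of old PBS to young PBS was 3.69 (3.24 to 4.20) and that of old rMETRNL to old PBS was 0.560 (0.508 to 0.617). The share of Inhba UMIs coming from these cells was 4.41%, 13.4% and 7.15%. RNA released by FAP-like cells was gauged from Col1a1, Col3a1 and Dcn, markers of that class: if Inhba were carried in at their rate, 42.5, 61.2 and 75.6 UMIs would be seen, and the counts were 7.09, 17.3 and 9.24 times that. In the 1387, 1091 and 1276 macrophage/monocyte-like cells without a UMI of these markers, Inhba stood at 4.86, 12.3 and 6.48 CPM. Old PBS was the highest and young PBS the lowest in these cells too. In cells picked by Csf1r or Adgre1 transcripts in place of clusters, the ratio of old PBS to young PBS was 2.15.

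**Figure D3:**
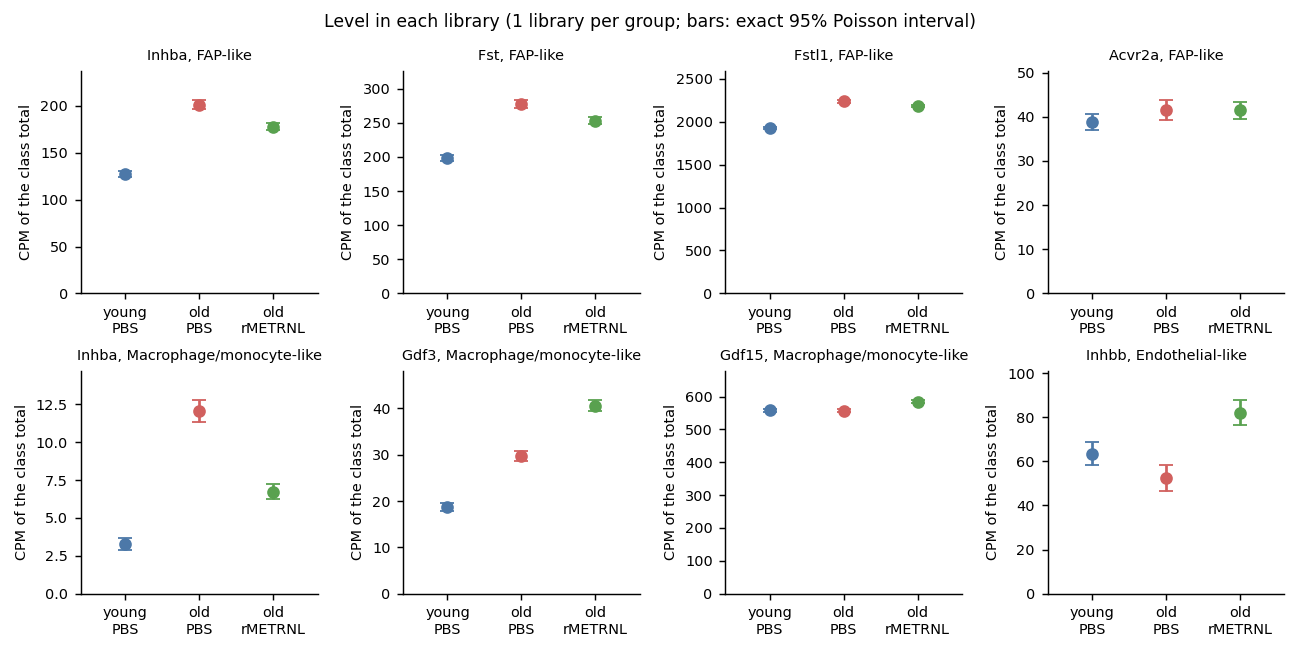
Points give the level of a gene in 1 class in the 3 libraries, as CPM of the class total, and bars the exact 95% Poisson interval, for Inhba, Fst, Fstl1 and Acvr2a in FAP-like, Inhba, Gdf3 and Gdf15 in macrophage/monocyte-like and Inhbb in endothelial-like cells. Inhba in FAP-like cells is lowest in young PBS (127.5 CPM) and highest in old PBS (201.5 CPM), and Gdf3 in macrophage/monocyte-like cells is highest in old rMETRNL (40.6 CPM).

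Sub-clusters of each class were described by their 3 leading genes. Of the 8 FAP-like sub-clusters, Inhba was higher in 6 and lower in 2 in old PBS against young PBS, by ratios of 0.456 to 2.35, and higher in 1 and lower in 7 in old rMETRNL against old PBS, by ratios of 0.132 to 1.28. Both 2.35 and 0.132 came from the Sfrp5, Itgb4 and Cldn1 sub-cluster, with 20, 26 and 9 cells and 52, 76 and 3 UMIs. The interval of old PBS to young PBS held 1 in the sub-clusters led by Swt1, Pi16, Hist1h1b and Hsd11b1. That of old rMETRNL to old PBS held 1 in those led by Swt1, Pi16, Myoc and Hist1h1b. In the FAP-like sub-cluster led by Inhba itself with Il11, a cytokine, and Acta2, smooth muscle actin, a sub-cluster that held 21.0%, 19.1% and 23.0% of the class, Inhba stood at 265, 403 and 366 CPM. In the sub-cluster led by the chemokines Cxcl10 and Ccl7 and by Sfrp1 it stood at 81.8, 172 and 115 CPM, ratios of 2.10 (1.96 to 2.26) and 0.671 (0.629 to 0.716). The cycling sub-cluster, led by Hist1h1b, Top2a and Cenpf, stood at 253, 265 and 256 CPM, and the Myoc and Clu sub-cluster was highest in young PBS, at 88.0, 40.1 and 35.1 CPM. The Pi16, Sema3c and Igfbp5 sub-cluster, the 1 that was higher in old rMETRNL than in old PBS, stood at 26.6, 31.1 and 39.7 CPM. With the sub-cluster mix held fixed, FAP-like Inhba was 133, 200 and 168 CPM, a ratio of old PBS to young PBS of 1.5.

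In macrophage/monocyte-like cells, 6 of the 9 sub-clusters held enough Inhba UMIs to be read. All 6 were higher in old PBS than in young PBS, by 2.17 to 6.48-fold, and all 6 lower in old rMETRNL than in old PBS, by ratios of 0.336 to 0.946. The interval of the ratio of old rMETRNL to old PBS held 1 in the sub-clusters led by Mmp12 and by Top2a. The sub-cluster led by Il10, Cxcl1 and Cxcl2 stood at 5.83, 37.8 and 23.3 CPM. Monocyte-marked cells led by Ly6c2, Plac8 and Cytip stood at 14, 35.1 and 19.9 CPM, and cells led by Ednrb, F13a1 and Clec10a at 3.53, 14.8 and 4.97 CPM.

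**Figure D4:**
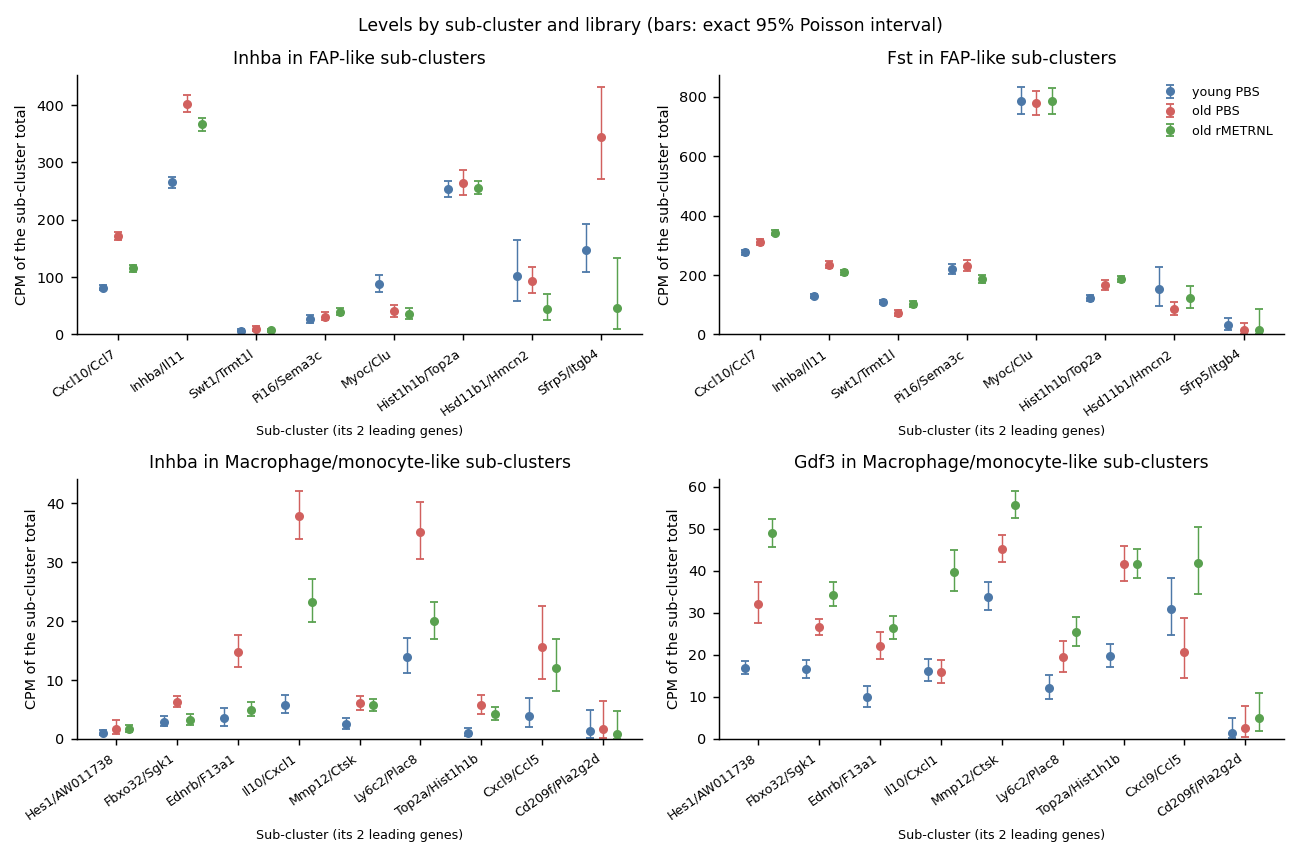
Points give CPM of the sub-cluster total, and bars the exact 95% Poisson interval, for Inhba and Fst in FAP-like and Inhba and Gdf3 in macrophage/monocyte-like sub-clusters, named by 2 leading genes, in the 3 libraries. Inhba in the Il10 and Cxcl1 sub-cluster stands at 5.83 CPM in young PBS and 37.8 in old PBS, and Fst in the Myoc and Clu sub-cluster lies between 779 and 788 CPM in all 3.

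Elsewhere Inhba was sparse or uneven. Tenocyte-like cells, the tendon class, stood at 104, 75.8 and 111 CPM, lowest in old PBS, the library in which FAP-like cells were highest. Pericyte/smooth muscle-like cells stood at 18.8, 23.0 and 38.5 CPM on 30, 25 and 47 UMIs, with a ratio of old rMETRNL to old PBS of 1.67 (1.01 to 2.84). Schwann/glial-like cells held 4, 54 and 56 UMIs, of which 52 in old PBS and 50 in old rMETRNL came from 1 cell each.

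The 250 bases upstream of the Inhba start and of the Gdf15 start are printed because these were the most abundant of the 5 ligand genes in FAP-like and in macrophage/monocyte-like cells, from RefSeq on GRCm38.p6, 5′ to 3′ on the gene's strand. Capitals mark a match to TATAAA; 6 motifs were searched on both strands after the levels were known.
Inhba, chr13:16011601-16011850, plus strand: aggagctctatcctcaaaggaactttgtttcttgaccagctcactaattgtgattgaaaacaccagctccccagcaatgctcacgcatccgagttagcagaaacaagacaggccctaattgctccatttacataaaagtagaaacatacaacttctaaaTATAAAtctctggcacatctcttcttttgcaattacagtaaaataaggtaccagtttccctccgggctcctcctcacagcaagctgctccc
Gdf15, chr8:70632457-70632706, minus strand: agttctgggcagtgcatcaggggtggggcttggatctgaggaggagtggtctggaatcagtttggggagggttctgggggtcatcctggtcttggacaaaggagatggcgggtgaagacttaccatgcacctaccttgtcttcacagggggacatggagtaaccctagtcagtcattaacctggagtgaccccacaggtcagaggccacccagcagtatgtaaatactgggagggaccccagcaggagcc
Of 32851 promoter windows, TGANTCA (AP-1) was in 6.75%, TGACGTCA (cAMP response element) in 1.55%, TGATGNAA (CEBP-ATF composite) in 3.45%, CAGACA (Smad box) in 17.1%, CANNTG (E-box) in 66.2% and TATAAA (core promoter box) in 12.4%. The Inhba window held TATAAA, starting 91 bases before the start site, and this Gdf15 window held none of the 6. A further Gdf15 window, upstream of another start site (chromosome 8, 70632096 to 70632345), held CANNTG at 3 places. Windows for 8 of the 10 genes were matched, and a match or its lack is a description of these letters only.

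Inhbb encodes the beta B chain of activin B (chromosome 1, 119415465 to 119422248, minus strand). In endothelial-like cells it stood at 63.4 CPM in young PBS (593 UMIs), 52.2 in old PBS (323 UMIs) and 82.1 in old rMETRNL (851 UMIs). The treated library was the highest, with a ratio to old PBS of 1.57 (1.38 to 1.79), while the ratio of old PBS to young PBS was 0.824. Endothelial-like cells differed in depth, with medians of 11058, 3721 and 6706 UMIs, and the part of depth in the difference was not tested. In FAP-like cells Inhbb was at 1.01, 2.80 and 1.40 CPM on 45, 83 and 61 UMIs, so the old PBS level was the highest there, with ratios of 2.78 (1.91 to 4.09) and 0.50 (0.353 to 0.704). In cells picked by a Pdgfra transcript in place of clusters these ratios were 1.38 and 0.713, neither past 1.5-fold. Pericyte/smooth muscle-like cells held 36, 10 and 45 UMIs, under the minimum for a ratio.

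Mstn (chromosome 1, 53061640 to 53068079, plus strand) was sparse in these cell suspensions. There were 7, 20 and 16 UMIs in all kept cells of young PBS, old PBS and old rMETRNL. Mature fibre-like cells, the class known to make it, held 2, 15 and 9 of these UMIs. No ratio was read, as counts were below the minimum of 100 UMIs.

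Gdf3 (chromosome 6, 122605403 to 122610087, minus strand), a ligand of the family, was lowest in young PBS and highest in old rMETRNL in macrophage/monocyte-like cells. It stood at 18.8 CPM in young PBS (1728 UMIs), 29.7 in old PBS (2605 UMIs) and 40.6 in old rMETRNL (4204 UMIs). The old PBS library was above young PBS by 1.58-fold (1.49 to 1.68), and the treated library was higher still, 1.37-fold (1.30 to 1.44) above old PBS. Without cells bearing FAP markers these ratios were 1.29 and 1.59. A Gdf3 UMI was found in 6.28%, 10.6% and 14.1% of these cells, and after thinning to 2000 UMIs in 2.54%, 3.80% and 5.32%; in thinned T/NK-like cells it was in 0 of 207, 1 of 200 and 0 of 130 cells, with exact 95% upper limits of 1.77%, 2.75% and 2.80%. All 8 sub-clusters read were at least level with old PBS in the treated library, with ratios of 1.0 to 2.51, and 6 of 8 were higher in old PBS than in young PBS. The sub-cluster led by Mmp12, Ctsk and Atp6v0d2 stood at 33.9, 45.3 and 55.6 CPM. Of the Gdf3 UMIs, unnamed cells held 5.67%, 14.6% and 7.54%.

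Gdf15 (chromosome 8, 70629393 to 70632456, minus strand) differed little between libraries in the class that held most of it. Macrophage/monocyte-like cells stood at 558, 557 and 585 CPM, on 51456, 48835 and 60573 UMIs. The ratios were 0.997 for old PBS to young PBS and 1.05 for old rMETRNL to old PBS. A UMI was found in 59.3%, 65.7% and 63.5% of these cells, against 8.06%, 7.96% and 10.8% of T/NK-like cells. Of 9 sub-clusters read, 3 were higher and 6 lower in old PBS than in young PBS, from 0.524 to 1.47, and 8 of 9 were higher in old rMETRNL than in old PBS. The Il10, Cxcl1 and Cxcl2 sub-cluster stood at 1178, 899 and 1055 CPM, and the one led by Hes1, AW011738 and Ifit3 at 449, 662 and 605 CPM. That last sub-cluster was 32.4%, 8.32% and 20.9% of the class. In the Ly6c2 sub-cluster Gdf15 stood at 214, 136 and 216 CPM, lowest in old PBS.

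Endothelial-like cells stood at 75.1, 68.4 and 76.4 CPM of Gdf15, pericyte/smooth muscle-like cells at 107, 120 and 115, and myogenic-like cells, which join the stem cell and myocyte classes, at 36.7, 31.9 and 42.2, none with a ratio past 1.5. In each of these classes and libraries, 10 cells held between 47.1% and 78.9% of the Gdf15 UMIs. RNA carried over from macrophage/monocyte-like cells was gauged as above and is given for FAP-like and dendritic-like cells. In FAP-like cells Gdf15 stood at 8.22, 7.46 and 12.1 CPM, with a ratio of old rMETRNL to old PBS of 1.62 (1.38 to 1.91); carry-over judged from Lyz2, C1qa and Csf1r would give 181, 148 and 237 of the 367, 221 and 527 UMIs, and only 16, 12 and 9 UMIs remained in cells without these markers, too few for a ratio. In dendritic-like cells it stood at 25.2, 37.7 and 17.2 CPM, with a ratio of old rMETRNL to old PBS of 0.457 (0.359 to 0.579) that ran from 0.224 with the looser cell filter to 0.705 with doublet calls kept, on counts below the 349, 328 and 321 UMIs that carry-over would give by markers that dendritic cells also express in part. Of the 173 UMIs in old PBS, 50 came from 1 cell and 126 from 10 cells. In T/NK-like cells it stood at 11.5, 98.6 and 45.2 CPM on 20, 165 and 41 UMIs, with ratios of 8.54 and 0.458, but 76 of the 165 in old PBS came from 1 cell. With a stricter cell filter these ratios turned to 0.696 and 6.69 and with a looser one to 0.788 and 5.76.

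**Figure D5:**
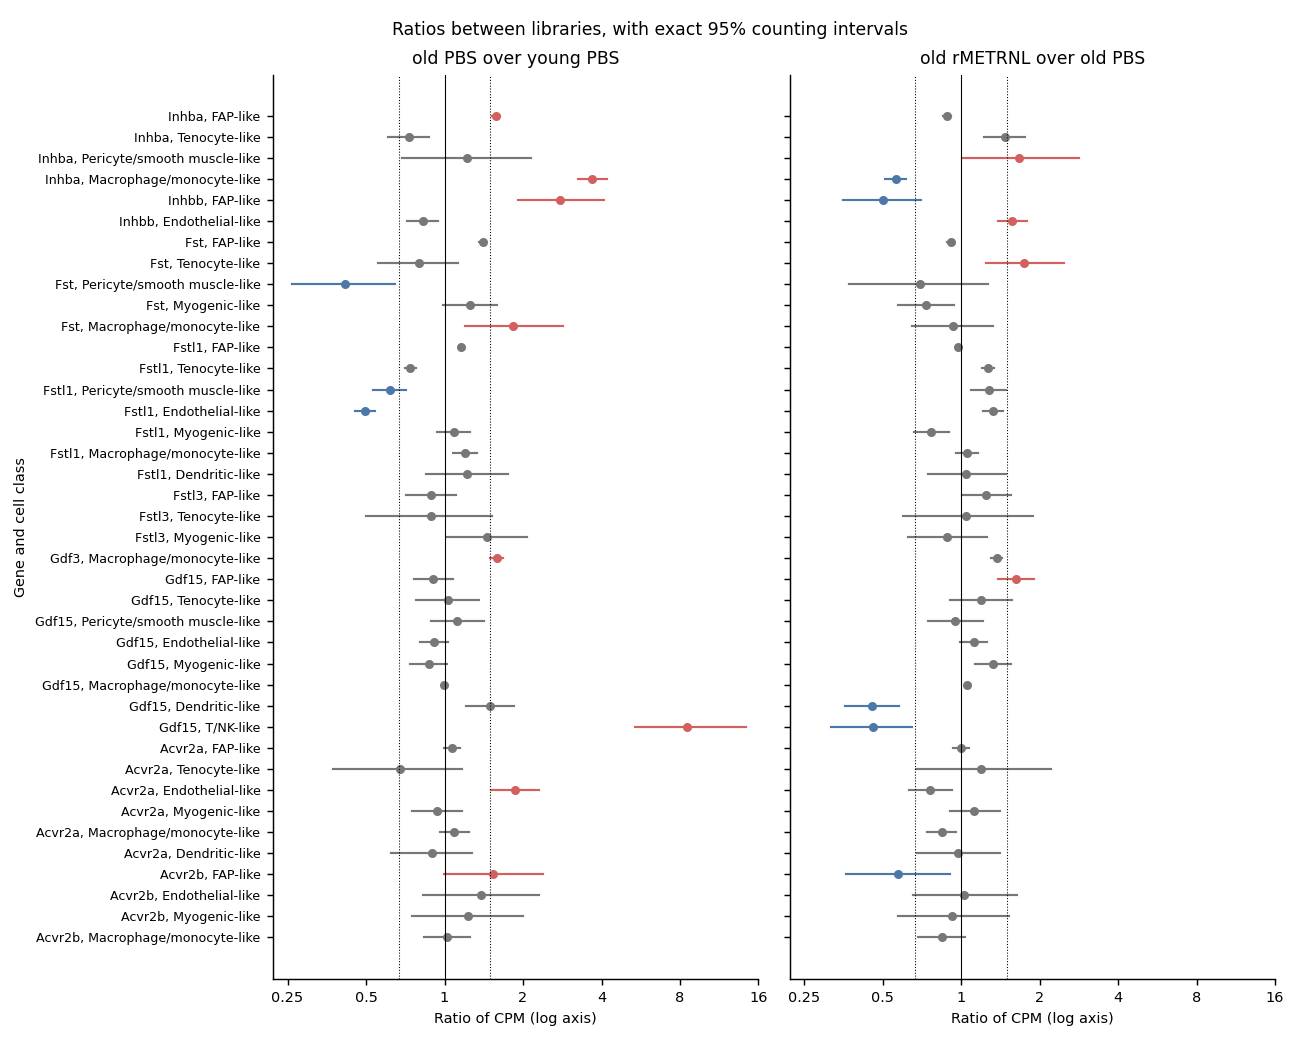
CPM ratio of old PBS to young PBS and of old rMETRNL to old PBS for each gene in each class with at least 100 UMIs, on a log axis, with exact 95% counting intervals; dotted lines stand at 1.5-fold higher and lower, and red and blue mark ratios past them. Inhba in macrophage/monocyte-like cells lies at 3.69 in the left panel and 0.560 in the right, and the point farthest from 1, Gdf15 in T/NK-like cells at 8.54, rests on 165 and 20 UMIs.

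The type II receptor genes were read in 10 pairs of a gene and a class. In FAP-like cells Acvr2a (chromosome 2) stood at 38.8, 41.5 and 41.5 CPM, a ratio of 1.07 for old PBS to young PBS and 1.0 for old rMETRNL to old PBS. The last was 0.531 in FAP-like cells without macrophage markers. In endothelial-like cells it stood at 17.4, 32.5 and 24.7 CPM, with a ratio of old PBS to young PBS of 1.87 (1.51 to 2.31). Myogenic-like cells stood at 18.9, 17.7 and 19.9 CPM, and their intervals overlapped. Acvr2b (chromosome 9) was sparse: in FAP-like cells 44, 45 and 38 UMIs gave 0.986, 1.52 and 0.871 CPM, so that old PBS over young PBS was 1.54 (0.994 to 2.39) and old rMETRNL over old PBS 0.574 (0.363 to 0.904), the first of which was 1.32 in cells picked by a Pdgfra transcript. In macrophage/monocyte-like cells Acvr2b stood at 2.11, 2.15 and 1.81 CPM. In endothelial-like cells it stood at 3.74, 5.17 and 5.31 CPM.

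Fst (chromosome 13, 114452290 to 114458951, minus strand) in FAP-like cells stood at 198 CPM in young PBS (8842 UMIs), 278 in old PBS (8234 UMIs) and 253 in old rMETRNL (11037 UMIs). Its ratios of 1.40 and 0.911 did not reach the 1.5-fold rule, though old PBS was the highest and young PBS the lowest, the same order as Inhba over all cells of the class. That order was lost in FAP-like cells without a UMI of Lyz2, C1qa and Csf1r, where Fst stood at 378, 378 and 266 CPM and old rMETRNL was the lowest. Of 7 FAP-like sub-clusters read, Fst was higher in 4 and lower in 3 in old PBS against young PBS, by ratios of 0.555 to 1.84. In the Inhba, Il11 and Acta2 sub-cluster Fst stood at 128, 235 and 209 CPM, a ratio of old PBS to young PBS of 1.84 (1.71 to 1.98), and in the Myoc and Clu sub-cluster at 788, 779 and 787 CPM, level in all 3. With the sub-cluster mix held fixed the class stood at 214, 252 and 261 CPM, with old rMETRNL and not old PBS the highest. Pericyte/smooth muscle-like cells stood at 59.7, 24.8 and 17.2 CPM on 95, 27 and 21 UMIs, a ratio of old PBS to young PBS of 0.416 (0.261 to 0.644). Of the 95 UMIs in young PBS, 83 came from 10 cells, and the 27 in old PBS came from 15 cells. RNA carried over from FAP-like cells would give 18.4, 8.0 and 14.3 UMIs there. Tenocyte-like cells stood at 26.5, 21.2 and 37.1 CPM, a ratio of old rMETRNL to old PBS of 1.74 (1.25 to 2.48), but the 46 UMIs in old PBS came from 3 cells, 43 of them from 1 cell, and the ratio was 0.999 at a clustering resolution of 0.4 and 5.41 with means of per-cell CPM. Myogenic-like cells, which hold the cells that follistatin is known to act on, stood at 13.1, 16.5 and 12.0 CPM. Macrophage/monocyte-like cells held 36, 63 and 69 UMIs, below what carry-over from FAP-like cells would give.

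Fstl3 (chromosome 10) reached the minimum of UMIs in 3 of the 8 classes and had no ratio past 1.5-fold in these as clustered. In FAP-like cells it stood at 5.02, 4.45 and 5.55 CPM, in myogenic-like cells at 5.53, 8.08 and 7.11, a ratio of old PBS to young PBS of 1.46 (1.02 to 2.08), and in tenocyte-like cells at 10.4, 9.24 and 9.68 CPM. Fstl1 (chromosome 16) was found in 99.9%, 98.8% and 99.3% of FAP-like cells, against 9.48%, 13.9% and 11.5% of T/NK-like cells. It stood there at 1931, 2241 and 2181 CPM, ratios of 1.16 and 0.973. It was lower in old PBS than in young PBS in the vascular classes: 220, 109 and 144 CPM in endothelial-like cells, a ratio of 0.495 (0.453 to 0.540), and 409, 252 and 321 CPM in pericyte/smooth muscle-like cells, a ratio of 0.616 (0.533 to 0.711). In macrophage/monocyte-like cells its UMIs were 1.03, 1.11 and 1.02 times what carry-over would give, and no order between libraries is read there.

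Of the 35 other genes of the pathway, 111 pairs were read, with 12 higher and 5 lower in old PBS against young PBS (all genes, 6.23% and 6.29%) and 3 higher and 6 lower in old rMETRNL against old PBS (4.36% and 4.3%). Pcsk6, a convertase that cleaves precursors of the family, stood at 23.9, 61.9 and 43.1 CPM in FAP-like cells, ratios of 2.59 (2.40 to 2.80) and 0.696. Tgfbr1, a type I receptor, stood at 125, 154 and 109 CPM in macrophage/monocyte-like cells, ratios of 1.23 and 0.705, and at 34.0, 40.6 and 36.4 CPM in FAP-like cells. Lefty1, an antagonist of nodal signalling, was 1.61-fold (1.22 to 2.14) higher in old rMETRNL than old PBS in macrophage/monocyte-like cells, at 1.03, 0.900 and 1.45 CPM. Tgfbr3, a co-receptor, stood at 0.564, 0.957 and 0.888 CPM there, and Dcn, a proteoglycan that is also a FAP marker, at 13.7, 24.5 and 21.5 CPM. Dcn in macrophage/monocyte-like cells is among the 12 counted as higher, though it is also 1 of the 3 genes used to gauge carry-over from FAP-like cells.

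Tgfbr1 and the remaining named genes of the pathway did not pass 1.5-fold in FAP-like or macrophage/monocyte-like cells. Smad2 in FAP-like cells stood at 27.1, 26.9 and 28.0 CPM, Smad3 at 12.7, 15.9 and 13.8 CPM, and the inhibitor Smad7 at 136, 139 and 134 CPM. Acvr1b stood at 10.1, 10.9 and 8.32 CPM and the ligand Gdf11 at 7.24, 7.32 and 5.60 CPM. In macrophage/monocyte-like cells Smad2 stood at 32.1, 35.3 and 34.2 CPM, Smad3 at 8.27, 9.78 and 7.51, and Smad7 at 45.4, 40.6 and 38.7. Furin, which cleaves the precursors, stood at 132, 165 and 140 CPM in macrophage/monocyte-like cells.

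The genes whose levels most resembled each member over the 24 class and library points, as Pearson correlation of log2(CPM + 1), were Glis3, C1ra and Shc2 for Inhba (0.96 for the closest), Aqp1, Shroom4 and Plvap for Inhbb (0.98), Dact1, Enox1 and Scn7a for Fst (0.96), and Bgn, Fbn1 and Ccn2 for Fstl1 (0.99). They were Fcna, Gpr34 and Cbr2 for Gdf3 (0.94), Osbpl11, Ppt2 and Stab1 for Gdf15 (0.91), Map1lc3a, Arhgap42 and Igfbp5 for Fstl3 (0.95), Fam160a1, Atxn7l3b and Slc43a3 for Acvr2a (0.85), and Taok1, Csnk1e and Plec for Acvr2b (0.89). The points share libraries and depth, so these are descriptions.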

How the data were processed

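The 3 libraries, each of pooled muscle suspensions, were sequenced on a droplet platform with unique molecular identifiers. The deposited files are raw UMI counts per gene and cell, made by the authors with Cell Ranger 5.0.0 per the file headers (the submitters' processing notes also list 3.1.0) on mm10; gene positions come from GENCODE M21 for GRCm38 by gene identifier. Counting error is the only error available with 1 library per group.

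Barcodes needed 500 genes or more, and less than 10% of UMIs from mitochondrial genes. Doublet scores came from Scrublet (scanpy 1.11.5), whose own threshold called 0, so the highest-scoring barcodes were removed at 0.8% per 1000 barcodes (1174, 1259 and 1548 cells). Counts scaled to 10000 per cell and log-transformed were reduced on 2000 variable genes, the 10 members left out, to 30 principal components and clustered with 20 neighbours by Leiden (leidenalg 0.10.2) at resolution 0.8, with sub-clusters at 0.6. A cluster was named from at least 3 detected markers and left unnamed where another class's markers led it or its UMIs were low; sub-clusters led by another class or low in UMIs left their class (between 3.62% and 9.75% of FAP-like and macrophage/monocyte-like cells by library). These naming rules were revised after cluster tables were seen, and the members and lists were chosen with earlier results of these data known.

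UMIs were summed per class and library and divided by the class total (CPM), with exact 95% Poisson intervals, exact conditional binomial intervals for ratios and exact binomial intervals for shares. Ratios were read at 100 or more UMIs over the 3 libraries and counted at 1.5-fold. No test between groups was made. Thinning drew 2000 UMIs per cell. The genes named were the 10 members, pathway genes past 1.5-fold in FAP-like or macrophage/monocyte-like cells with 7 fixed ones, the 3 genes most like each member with at least 300 UMIs, and each sub-cluster's 3 leading genes. The ratio calculation was tried on Poisson counts simulated with known folds. These hold no spread between cells or animals, so they check the calculation only. Alternatives covered cell filters, doublets, resolution, clustering genes, library centring, per-cell means, TMM (edgeR 4.0.16) and median-of-ratios factors, minimum UMIs, fold, and transcript gates, with 5 added after seeing the data. Python 3.11.15, numpy 2.4.6, scipy 1.17.1, pandas 2.3.3 and R 4.3.3 were used.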

Additional observations from a re-analysis of the deposited data

Results flagged for a closer look

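Genes past 1.5-fold in opposite directions in 2 classes under the same comparison were singled out; the difference between classes was not tested in any of them. In old rMETRNL against old PBS, Inhba had a ratio of 1.67 in pericyte/smooth muscle-like cells and 0.560 in macrophage/monocyte-like cells, the first on 47 and 25 UMIs. Inhbb had a ratio of 1.57 in endothelial-like cells and 0.50 in FAP-like cells. Gdf15 had a ratio of 1.62 in FAP-like cells, against 0.457 in dendritic-like cells and 0.458 in T/NK-like cells, the last of which changed side under other settings (given next). In old PBS against young PBS, Fst had a ratio of 1.84 in macrophage/monocyte-like cells, on 63 and 36 UMIs. In pericyte/smooth muscle-like cells it was 0.416, on 27 and 95 UMIs, 83 of the 95 from 10 cells. Those macrophage/monocyte-like counts were 0.747 and 0.546 times what carry-over from FAP-like cells would give, and the ratio was 0.988 under the transcript gate.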

How the results depend on the processing

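With 1 library per group, no replicate could be left out, and the intervals hold counting error but no spread between mice, suspensions or captures. No paired analysis was possible because each group is 1 library, so the groups share fewer than 2 replicate numbers. Depth limits Mstn, Acvr2b and Fstl3 most, the members with fewest UMIs. Counts past 1.5-fold were 11 (members) and 17 (pathway genes) for old PBS against young PBS, and 9 and 9 for old rMETRNL against old PBS. They came from 40 member and 111 pathway pairs, and 12.5% and 8.66% of pairs over all genes passed in the 2 comparisons. With no minimum of UMIs they were 33 of 70, 50 of 172, 23 of 70 and 35 of 171 (all genes, 28.9% and 25.2%). With a minimum of 300 UMIs they were 6 of 27, 8 of 79, 5 of 27 and 4 of 79 (8.47% and 5.11%), and at 2-fold 5, 4, 3 and 1 (3.02% and 1.85%). The stricter cell filter left 5 classes and 23 member ratios to read in place of 8 and 40, and gave 11 of 69 pathway pairs in the first comparison and 5 member and 4 of 69 pathway pairs in the second (all genes, 12.4% and 9.16%). Under the other alternatives for which the 4 counts were made, they stayed within 1.5 times. The share of all genes past 1.5-fold was higher with means of per-cell CPM, at 16.9% and 12.2%. No such counts are given for the transcript gates, the fixed sub-cluster mix or the cells without markers. Of 1084 single-gene ratios recomputed under 16 alternatives, 970 fell within the counting interval first given and 114 outside it. The side of 1 changed for 67: 8 whose first ratio was past 1.5-fold, and 59 whose first ratio was not, 19 of them outside its interval (among these Inhba in FAP-like cells, 1.18 for old rMETRNL to old PBS without marker-bearing cells, and Fstl1 in macrophage/monocyte-like cells, 0.611 for old PBS to young PBS under the transcript gate). Of the 8, Gdf15 in T/NK-like cells changed side in both comparisons, at 0.696 and 6.69 under the stricter filter, 0.788 and 5.76 under the looser one, and 0.766 and 1.89 without cells bearing macrophage markers, the last pair on 4, 2 and 2 UMIs, too few to read a direction. Fst stood at 0.999 in tenocyte-like cells for old rMETRNL against old PBS at resolution 0.4, and at 0.988 in macrophage/monocyte-like cells for old PBS against young PBS under the transcript gate. The cause was not tested in any of these. Among the counted classes, the one with the highest level stayed the same for 7 to 10 of the 10 members, with Fstl3, Mstn and Acvr2b differing in at least 1 alternative. Their highest counted classes, pericyte/smooth muscle-like (Fstl3, Acvr2b) and tenocyte-like (Mstn), were not counted under the stricter filter, nor the first of them with doublet calls kept or at resolution 0.4, so a change there was forced; Acvr2b also differed with means of per-cell CPM, where no class was missing. Counting the removed sub-clusters or the large unnamed cluster, leaving out shared barcodes, holding the sub-cluster mix fixed and leaving out marker-bearing cells were chosen after seeing the data.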

Other observations

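Over all kept cells, a measure that also moves with the mix of classes, Inhba stood at 36.5, 50.8 and 49.1 CPM (young PBS, then old PBS, then old rMETRNL) and Gdf3 at 10.1, 20.2 and 23.0 CPM. Schwann/glial-like cells, too few for a comparison at 25, 70 and 53 cells, held Gdf15 at 114, 170 and 339 CPM on 26, 58 and 107 UMIs, of which 1 cell in each library held 18, 42 and 78. Fstl1 in myocyte-like cells of old PBS rested on 75 UMIs, 68 of them in 1 cell.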
